A study of Mus musculus with 8 samples.

Results

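The genes described are 10 members of the fibroblast growth factor (FGF) signalling family of the mouse: the ligands Fgf2, Fgf4, Fgf5, Fgf8 and Fgf15, the receptors Fgfr1, Fgfr2, Fgfr3 and Fgfr4, and the secreted carrier Fgfbp1. They were chosen by symbol, and a member was read from every probe set annotated with that single gene symbol. The members had 11 probe sets, and they are 10 of the 22180 genes with such a probe set on the Affymetrix Mouse Gene 2.1 array. The series set FGF2-dependent lines, named FGF-ESC, beside EpiSC, ESC and inner cell mass (ICM), with 2 arrays for each of the 4 groups. Its title describes the FGF2-dependent lines as pluripotent stem cells with naive characteristics. All samples were wild-type C57BL/6J mouse material. FGF-ESC and EpiSC were both grown in KODMEM with 20% KSR (knockout serum replacement) and FGF2 on MEF (mouse embryonic fibroblast) feeders. ESC were grown without feeders in DMEM with 15% FCS (fetal calf serum) and 2i/LIF, a pair of kinase inhibitors, one of which blocks MEK in the pathway downstream of FGF receptors, with leukaemia inhibitory factor. ICM was not cultured and was isolated by immunosurgery from embryonic day 3.5 blastocysts. The labels give a day 3.5 embryo as the origin of all 3 kinds of line, EpiSC included. RNA of the lines and of ICM was purified with different column kits, so that kit, culture and cell type cannot be told apart in a comparison with ICM. Medium, feeders and cell type differ together between ESC and both FGF2-grown groups. The labels leave unstated whether arrays of 1 group stem from different cultures or embryo pools; a p-value therefore reflects no more than how these samples vary, which may be technical.

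Values are the deposited log2 array signals. The median of all values, 4.24, was used as a floor: a level near or under it is close to background, and a fold change whose lower group lies there depends on where background lies. Of the members, 8 were above the floor on at least 2 arrays and were tested. Fgf2 and Fgfr4 were under it on all 8 arrays. Levels of different genes come from different probe sets and were not set against each other. A difference passed the test at an adjusted p below 0.05 (limma, Benjamini-Hochberg over 13597 genes) and a log2 fold change of 1 or more in size.

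FGFs are secreted proteins that bind receptor tyrosine kinases together with heparan sulfate chains on cell surfaces and matrix. Bound receptors signal through FRS2, GRB2 and RAS to the kinase ERK, and ERK in turn raises its own inhibitors. In the mouse blastocyst, Fgf4 made by epiblast precursors drives neighbouring cells towards primitive endoderm. In naive embryonic stem cells the same signal favours exit from the naive state, whereas primed epiblast cells are maintained with added FGF2.

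RefSeq promoter sequence (build GRCm38.p6) was matched for 7 of the 10 members. The 250 bases before the annotated start are shown for the 4 matched members that passed a comparison, since these are the genes whose levels separated the groups. Fgf4 lies on the plus strand at chr7:144861136-144861385, Fgf5 on the plus strand at chr5:98253934-98254183, Fgfr2 on the minus strand at chr7:130266809-130267058 and Fgfbp1 on the minus strand at chr5:43981800-43982049. Each is written 5′ to 3′ on its own strand, and capitals mark a GC box (GGGCGG, or CCGCCC on the opposite strand) or a CCAAT box (CCAAT, or ATTGG on the opposite strand).
Fgf4: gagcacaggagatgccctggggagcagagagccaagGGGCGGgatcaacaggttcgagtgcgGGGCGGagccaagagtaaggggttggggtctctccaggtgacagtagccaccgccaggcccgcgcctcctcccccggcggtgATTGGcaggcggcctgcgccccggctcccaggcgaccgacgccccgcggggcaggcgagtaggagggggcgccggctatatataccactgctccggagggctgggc
Fgf5: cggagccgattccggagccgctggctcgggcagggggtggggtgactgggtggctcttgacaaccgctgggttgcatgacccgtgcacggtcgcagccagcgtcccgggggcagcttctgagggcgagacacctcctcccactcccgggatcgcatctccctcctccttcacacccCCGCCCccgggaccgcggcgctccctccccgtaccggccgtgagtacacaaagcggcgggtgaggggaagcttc
Fgfr2: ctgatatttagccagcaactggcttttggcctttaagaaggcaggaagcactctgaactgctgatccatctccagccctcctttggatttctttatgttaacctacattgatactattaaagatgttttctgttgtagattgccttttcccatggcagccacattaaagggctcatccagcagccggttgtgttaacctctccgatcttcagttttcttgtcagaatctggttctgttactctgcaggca
Fgfbp1: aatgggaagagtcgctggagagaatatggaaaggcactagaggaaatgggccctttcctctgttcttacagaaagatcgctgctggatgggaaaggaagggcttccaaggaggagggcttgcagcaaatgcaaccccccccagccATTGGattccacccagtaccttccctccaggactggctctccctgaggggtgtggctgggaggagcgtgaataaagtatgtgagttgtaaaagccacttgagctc
The windows of Fgf4 and Fgf5 were rich in CpG, with 21 and 24 CpG sites, while Fgfr2 had 2 and Fgfbp1 had 3. The median over 32851 RefSeq promoters was 6. The matched members not shown were above that median too, receptors included: Fgf2 had 20, Fgfr3 had 19 and 24 in its windows, and Fgfr4 had 15. The Fgf4 window held 2 GC boxes, 214 and 188 bases before the start, and a CCAAT box on the opposite strand 106 bases before it. Fgf5 had a single GC box on the opposite strand 74 bases before the start, and Fgfbp1 a CCAAT box on the opposite strand at 105 bases. Over all promoters, searched on both strands, 32.7% held a GC box and 33.9% a CCAAT box. The exact letters TATAAA of the TATA box (12.4% of promoters) and the OTX motif TAATCC (6.25%) were in none of the 8 windows of the 7 matched members. Looser forms of the TATA box were not searched, and the run tatatata near the end of the Fgf4 window was not counted. A match describes letters and not a bound site, and other starts of these genes were not searched. The RefSeq gene table also places Fgf3, Fgf4 and Fgf15 next to each other among the protein-coding genes of chromosome 7. Their levels are given below and did not share a pattern by group: Fgf3 stayed between 3.08 and 3.86 on all 8 arrays, under the floor.

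The cultured cells and ICM were first set against marker genes of the cell types they could hold. The mean level of 12 naive markers was 7.27 and 7.65 in FGF-ESC, 5.02 and 5.44 in EpiSC, 8.02 and 8.03 in ESC, and 7.76 and 7.74 in ICM. The mean of the primed markers (11 of 12 genes with a probe set) was highest in EpiSC, at 6.66 and 6.87, against 5.54 and 5.80 in FGF-ESC. Fibroblast markers (25 of 26 genes with a probe set) averaged 8.35 and 7.11 in FGF-ESC, 4.97 and 5.24 in EpiSC, 4.37 and 4.41 in ESC, and 4.37 and 4.55 in ICM. FGF-ESC stood apart on this list: 23 of its genes were above the floor on both FGF-ESC arrays, against 18 in EpiSC, 11 in ESC and 12 in ICM. The first FGF-ESC array was the higher of the pair, and the residual spread of FGF-ESC (SD 0.28) was larger than in EpiSC (0.15), ESC (0.12) or ICM (0.21). ICM held some markers of primitive endoderm and trophectoderm as well: Gata6 averaged 3.62 in FGF-ESC, 4.42 in EpiSC, 3.70 in ESC and 8.02 in ICM. Other primitive endoderm genes differed less, with Gata4 at 4.76, 4.94, 4.87 and 5.06 and Sox17 at 4.63, 5.14, 4.76 and 5.22 in the same order. Sox7 and Amn were under the floor in ICM, and Foxa2 was highest in EpiSC. Cdx2, of trophectoderm, averaged 3.89, 4.27, 4.13 and 5.39 in the same order of groups, whereas the trophectoderm genes Elf5 and Gata2 were under the floor in ICM.

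Among the ligands, Fgf4 was higher in FGF-ESC and ESC than in EpiSC and ICM. Its log2 level was 7.57 and 8.14 in FGF-ESC, 5.79 and 6.35 in EpiSC, 8.06 and 8.04 in ESC, and 6.64 and 6.71 in ICM. Both FGF-ESC arrays and both ESC arrays were above every EpiSC and ICM array, and the ESC values lay between the FGF-ESC values. Fgf4 was 3.44-fold higher in FGF-ESC than in EpiSC (log2 fold change 1.78 ± 0.22, SE, adjusted p = 0.00129), 2 groups grown in the same medium on feeders. It was 1.18 ± 0.22 higher on the log2 scale in FGF-ESC than in ICM (adjusted p = 0.00436), and without the second FGF-ESC array this was 0.89, under the fold minimum. Between EpiSC and ESC the log2 fold change was -1.98 ± 0.22 (adjusted p = 0.000599), and between ESC and ICM it was 1.37 ± 0.22 (adjusted p = 0.00229). The arrays of EpiSC lay under those of ICM, but this step did not pass (adjusted p = 0.0641). Because the arrays measured bulk RNA, fewer cells of a type and less RNA per cell cannot be told apart here or below.

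Fgf5, Fgf8 and Fgf15 were highest in EpiSC: each was above the floor on both EpiSC arrays and on no other array. All of them thus entered the test only through the group where they were high, so that their calls had to lean that way. Fgf5 marks the epiblast after implantation, and it also limits hair growth in skin. Its level was 3.43 and 3.18 in FGF-ESC, 5.72 and 6.07 in EpiSC, 3.07 and 3.10 in ESC, and 3.15 and 2.87 in ICM. The EpiSC arrays did not overlap with the other 6, which were all under 4.24. The log2 fold change was -2.59 ± 0.17 in FGF-ESC against EpiSC (adjusted p = 6.51e-05), 2.81 ± 0.17 in EpiSC against ESC (adjusted p = 2.81e-05) and 2.89 ± 0.17 in EpiSC against ICM (adjusted p = 6.8e-06). These 3 comparisons share the EpiSC arrays. FGF-ESC, ESC and ICM did not differ from each other past the threshold.

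Fgf8, a ligand needed for cell movement at gastrulation, was at 3.78 and 3.18 in FGF-ESC, 5.68 and 5.41 in EpiSC, 3.52 and 3.46 in ESC, and 3.81 and 3.55 in ICM. Again the EpiSC arrays were the only ones above the floor, and those of FGF-ESC spanned the ESC values. Fgf8 was 4.19-fold lower in FGF-ESC than in EpiSC (log2 fold change -2.07 ± 0.20, adjusted p = 0.000413). The log2 fold change was 2.06 ± 0.20 in EpiSC against ESC (adjusted p = 0.000309) and 1.87 ± 0.20 in EpiSC against ICM (adjusted p = 0.000198).

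Fgf15, the mouse counterpart of a human endocrine FGF that restrains bile acid synthesis and is also made in the embryonic brain, showed the smallest of these EpiSC differences. One of its 2 probe sets read 3.94 and 3.88 in FGF-ESC, 5.03 and 5.25 in EpiSC, 3.99 and 3.77 in ESC, and 4.17 and 4.14 in ICM. The EpiSC arrays did not overlap with the rest. The log2 fold change was -1.23 ± 0.13 in FGF-ESC against EpiSC (adjusted p = 0.000599) and 1.26 ± 0.13 in EpiSC against ESC (adjusted p = 0.000397). Against ICM, EpiSC missed only the fold minimum, at 0.98 ± 0.13 (adjusted p = 0.000616), and passed at 1.09 without the first EpiSC array. The second probe set of the gene read 3.47 and 3.47 in FGF-ESC, 3.60 and 3.98 in EpiSC, 3.49 and 3.58 in ESC, and 3.54 and 3.97 in ICM, under the floor on every array. With the mean of both probe sets in its place, Fgf15 was at -0.78 in FGF-ESC against EpiSC and 0.76 in EpiSC against ESC, and no longer passed. With values raised to the floor, these were -0.90 and 0.90.

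Fgf2, the factor added to the medium of FGF-ESC and EpiSC, was near background as a transcript. Its level was 3.57 and 3.73 in FGF-ESC, 3.58 and 3.68 in EpiSC, 3.60 and 3.69 in ESC, and 3.83 and 3.76 in ICM. The highest array was 3.83, so the gene was not tested, and a level that low sets no order between the groups.

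**Figure D1:**
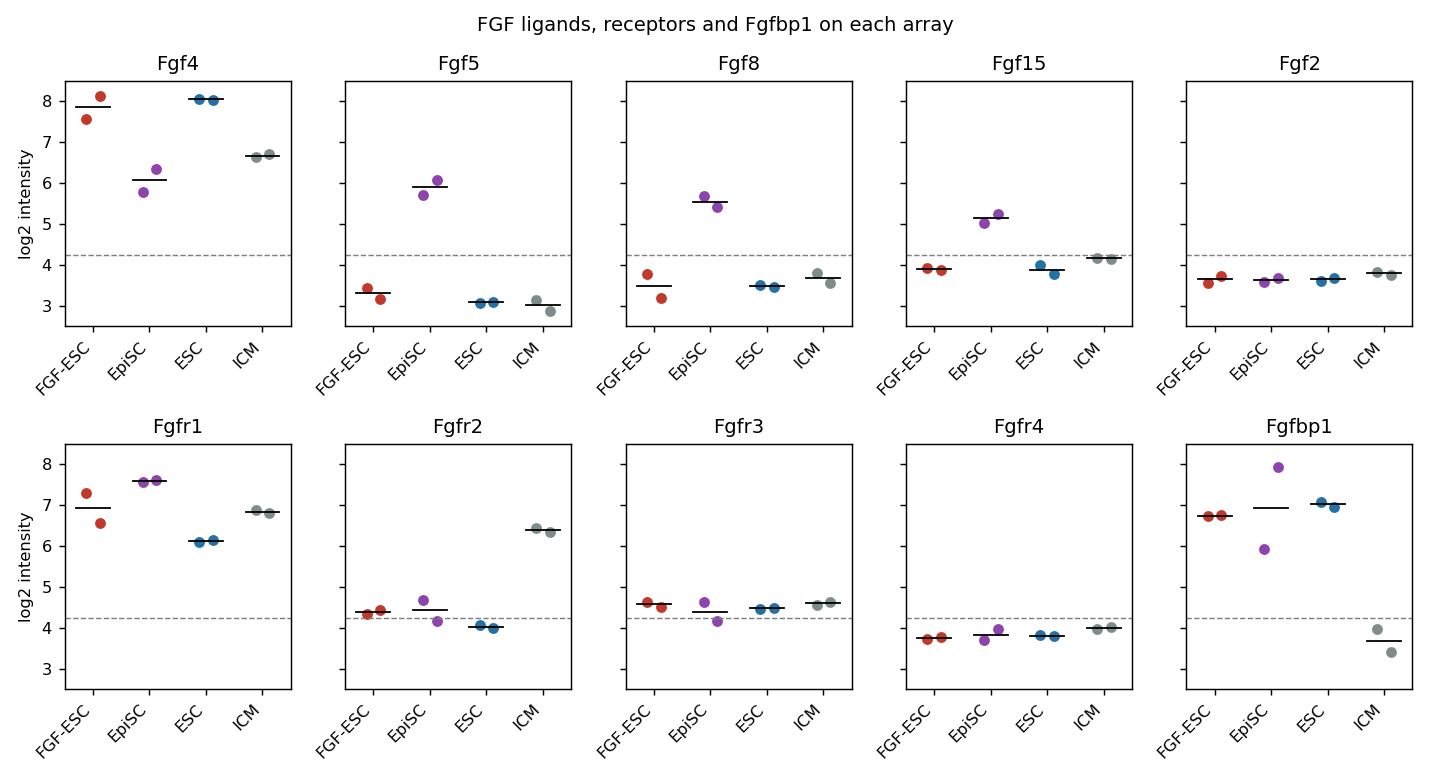
Log2 level of each of the 10 members (one panel each) on the 2 arrays of FGF-ESC, EpiSC, ESC and ICM, with points for arrays, a short bar for the group mean and a dashed line at the floor of 4.24. Fgf5, Fgf8 and Fgf15 lie above the floor on the EpiSC arrays alone, Fgfr2 is highest in ICM, and Fgfbp1 is under the floor in ICM.

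The receptors differed in other ways. Fgfr1, a main receptor of the epiblast and of embryonic stem cells, was at 7.29 and 6.57 in FGF-ESC, 7.57 and 7.62 in EpiSC, 6.09 and 6.14 in ESC, and 6.88 and 6.80 in ICM. EpiSC was highest and ESC lowest with no overlap, and the FGF-ESC arrays lay on either side of the ICM arrays. Fgfr1 was 2.79-fold higher in EpiSC than in ESC (log2 fold change 1.48 ± 0.21, adjusted p = 0.00171), the only receptor comparison between cultured lines that passed. A further 3 comparisons missed only the fold minimum: FGF-ESC against ESC at 0.81 ± 0.21 (adjusted p = 0.0350), EpiSC against ICM at 0.76 ± 0.21 (adjusted p = 0.0204) and ESC against ICM at -0.72 ± 0.21 (adjusted p = 0.0291). The FGF-ESC value rested on which array was used: it was 0.46 without the first array (adjusted p = 0.0722), and it was 1.17 and passed without the second, with adjusted p from 0.000402 to 0.187 over all alternatives. Fibroblast markers were also higher on that first array, at 8.35 against 7.11, and their part in the Fgfr1 level was not tested.

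Fgfr2, a receptor of primitive endoderm and trophectoderm in the mouse blastocyst, was highest in ICM. Its level was 4.35 and 4.44 in FGF-ESC, 4.69 and 4.17 in EpiSC, 4.06 and 3.99 in ESC, and 6.43 and 6.34 in ICM. Both ICM arrays were more than 1 log2 unit above all 6 arrays of cultured cells, whose levels were near the floor. The log2 fold change was -1.99 ± 0.17 in FGF-ESC against ICM (adjusted p = 6.9e-05), -1.96 ± 0.17 in EpiSC against ICM (adjusted p = 5.71e-05) and -2.36 ± 0.17 in ESC against ICM (adjusted p = 3.74e-05). No pair of cultured groups differed past the threshold. The mean of the primitive endoderm markers was also highest in ICM. It was 5.27 and 4.91 in FGF-ESC, 4.75 and 4.84 in EpiSC, 4.22 and 4.30 in ESC, and 6.05 and 6.11 in ICM. Trophectoderm markers averaged 4.56 and 4.61, 4.66 and 4.84, 4.84 and 4.80, and 5.73 and 5.64 in the same order. The primitive endoderm genes did not all follow Fgfr2. Against ICM, 3 of the 10 tested fell in FGF-ESC (30%, beside 5.22% of all genes). In EpiSC 6 fell (60%, beside 6.8%) and 1 rose (10%, beside 8.48%), Foxa2, at 5.49 against 4.23 in ICM. In ESC 7 fell (70%, beside 5.57%). Pdgfra averaged 7.43 in FGF-ESC and 7.94 in ICM, and Dab2 averaged 6.93 and 6.71. The share of the Fgfr2 difference that goes with either cell type was not tested.

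**Figure D2:**
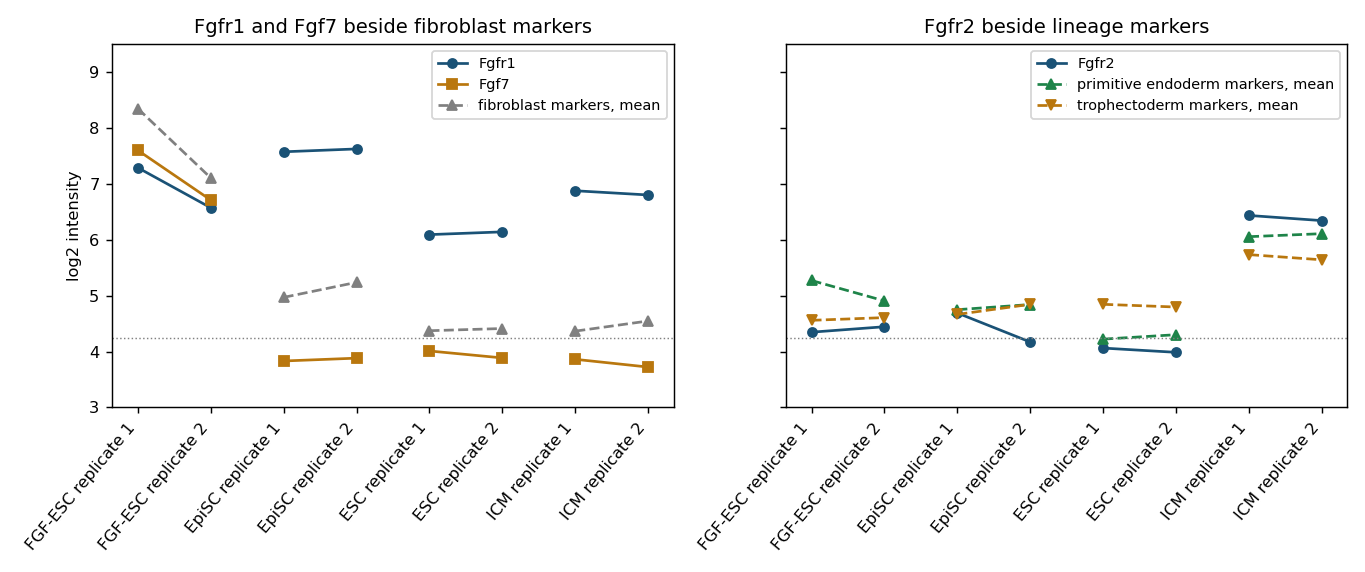
Log2 level on each array, with a line joining the arrays of a group and a dotted line at the floor of 4.24. The left panel has Fgfr1, the stromal ligand Fgf7 and the mean of the fibroblast markers, all higher on the first FGF-ESC array than on the second; the right panel has Fgfr2 with the means of the primitive endoderm and trophectoderm markers, all highest in ICM.

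Fgfr3, known for restraining bone growth, passed in no comparison. It was at 4.64 and 4.51 in FGF-ESC, 4.62 and 4.16 in EpiSC, 4.47 and 4.48 in ESC, and 4.57 and 4.63 in ICM, a range of less than 1 log2 unit near the floor. Fgfr4, a receptor of liver bile acid control, was under the floor throughout, at 3.72 and 3.77 in FGF-ESC, 3.69 and 3.96 in EpiSC, 3.81 and 3.79 in ESC, and 3.97 and 4.03 in ICM.

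Fgfbp1 encodes a secreted carrier that releases FGFs from heparan sulfate. Its level was 6.73 and 6.75 in FGF-ESC, 5.92 and 7.93 in EpiSC, 7.09 and 6.95 in ESC, and 3.96 and 3.41 in ICM. All 6 arrays of cultured cells were above both ICM arrays, which were under the floor. Fgfbp1 was higher than in ICM by 3.06 ± 0.53 on the log2 scale in FGF-ESC (adjusted p = 0.00254), by 3.24 ± 0.53 in EpiSC (adjusted p = 0.00167) and by 3.33 ± 0.53 in ESC (adjusted p = 0.0019). The 2 EpiSC arrays were 2.01 log2 units apart, so the order of the cultured groups cannot be read, and the log2 fold change in EpiSC against ICM lay between 2.23 and 4.24 when any 1 array was left out.

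Set out by comparison, FGF-ESC against EpiSC had 4 of the 8 tested members past the test, beside 7.28% of all genes tested. Fgf4 was higher in FGF-ESC (5.26% of all genes were), and Fgf5, Fgf8 and Fgf15 were lower (2.02%). In FGF-ESC against ESC none of the 8 passed in limma, beside 6.21% of all genes (5.27% higher and 0.934% lower), and 1 of them, Fgfr1, had an unadjusted p below 0.05. In FGF-ESC against ICM 3 passed, beside 14.8% of all genes: Fgf4 and Fgfbp1 were higher (9.57%) and Fgfr2 was lower (5.22%) in FGF-ESC. In EpiSC against ESC 5 passed, beside 7.36% of all genes, with Fgf5, Fgf8, Fgf15 and Fgfr1 higher (3.86%) and Fgf4 lower (3.5%) in EpiSC. In EpiSC against ICM 4 passed, beside 15.3%, with Fgf5, Fgf8 and Fgfbp1 higher (8.48%) and Fgfr2 lower (6.8%). In ESC against ICM 3 passed, beside 11.4%, with Fgf4 and Fgfbp1 higher (5.82%) and Fgfr2 lower (5.57%). Fgf5, Fgf8 and Fgf15 entered the test only through the EpiSC arrays, so that their counts had to lean that way. With no filter, all 10 members were tested and the counts were the same 4, 0, 3, 5, 4 and 3.

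**Figure D3:**
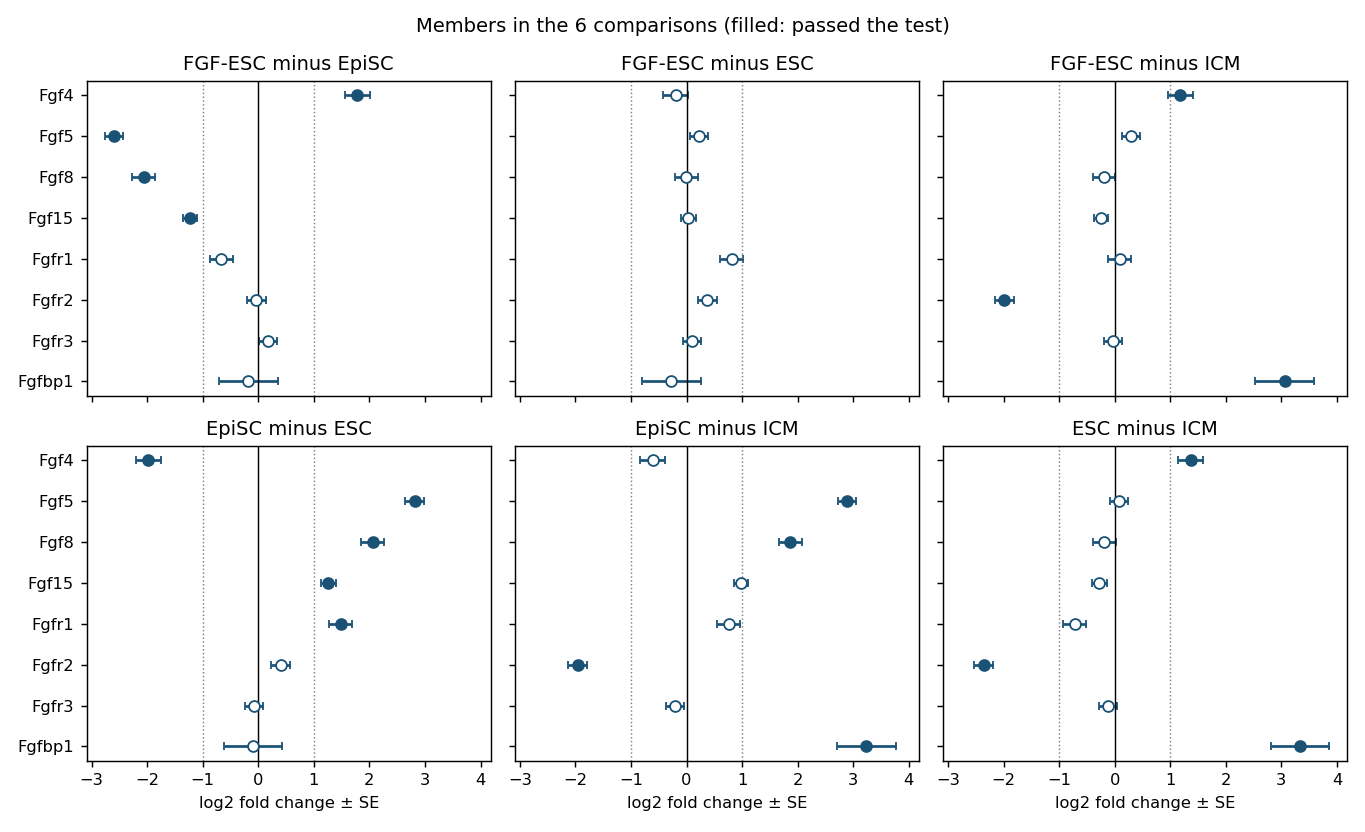
Log2 fold change ± SE (horizontal axis) of the 8 tested members in the 6 comparisons, with filled points where the test was passed and dotted lines at the fold minimum of 1. The FGF-ESC minus ESC panel has no filled point, and the largest error bars are those of Fgfbp1 (SE 0.53).

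For each of the 7 members that passed anywhere, the 3 genes with the nearest profile over the 8 arrays were found by the root mean square difference of values centred on each gene's mean. They are a description of these arrays. For Fgf4 they were Zfp57, a regulator of genomic imprints (0.19), Prdm14, a naive pluripotency factor (0.20), and Mymx (0.21). For Fgf5 they were Clca4a (0.08), Shisa6 (0.13) and Cdh10 (0.17), and for Fgf8 Trim67 (0.15), Mmp25 (0.19) and the ligand Wnt8a (0.21). Fgf15 lay nearest to Mir544 (0.12), Csn3 (0.15) and Med14 (0.15). Fgfr1 lay nearest to Zfp362 (0.16), the ERK phosphatase gene Dusp4 (0.17) and Bend3 (0.17), and Fgfr2 to Slc49a4 (0.16), Zbtb10 (0.18) and Gpd1l (0.19). Fgfbp1 had no close neighbour, with Cdk6 (0.49), Gng3 (0.50) and Morn4 (0.52) the nearest.

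Of the remaining 17 FGF ligands, 8 were above the floor on at least 2 arrays and were tested, among them Fgf1, Fgf17 and Fgf22, which were above it on all 8. Fgf7, which stromal cells make to act on epithelium, was at 7.60 and 6.71 in FGF-ESC, 3.83 and 3.88 in EpiSC, 4.01 and 3.89 in ESC, and 3.86 and 3.72 in ICM. Only FGF-ESC was above the floor, so that Fgf7 entered the test through the group where it was high and its call had to lean that way. The log2 fold change was 3.30 ± 0.25 against EpiSC (adjusted p = 0.000124), 3.21 ± 0.25 against ESC (adjusted p = 0.000223) and 3.36 ± 0.25 against ICM (adjusted p = 3.26e-05). The fibroblast list moved with it: 19 of its 23 tested genes rose in FGF-ESC against EpiSC (82.6%, beside 5.26% of all genes). The median log2 fold change was 2.71 beside -0.04 over all genes, and 20 rose against ESC (87%, beside 5.27%). Some of these genes, such as Lox and Col5a2, were likewise above the floor in FGF-ESC alone and entered the test through that group. Without the first FGF-ESC array the median against EpiSC was 1.76, and the count against ESC was 13 without the first ESC array and 14 without the second. Its part in the Fgf7 level was not tested. Fgf17, a relative of Fgf8, was at 5.80 and 5.74 in FGF-ESC, 5.11 and 5.31 in EpiSC, 5.83 and 5.75 in ESC, and 4.25 and 5.24 in ICM. It passed in FGF-ESC against ICM (1.02 ± 0.27, adjusted p = 0.0194) and in ESC against ICM (1.04 ± 0.27, adjusted p = 0.0193). Without the first ICM array neither passed; without the first FGF-ESC array the FGF-ESC difference, and without either ESC array the ESC difference, did not pass. Fgf10, a ligand of limb and lung buds, was lower in EpiSC than in ICM (-1.04 ± 0.15, adjusted p = 0.000914), but not past the test without the first EpiSC or the second ICM array. No other ligand passed in EpiSC against ESC, where 2 of the 8 had an unadjusted p below 0.05.

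Proteins that bind or tune FGF receptors included 9 tested genes of 13 listed. Against ICM, 3 rose and 1 fell in FGF-ESC (33.3% and 11.1%, beside 9.57% and 5.22% of all genes). In EpiSC 3 rose and 1 fell as well (beside 8.48% and 6.8%), and in ESC 1 rose and 1 fell (11.1% each, beside 5.82% and 5.57%). Il17rd, an antagonist of FGF receptors that ERK signalling raises, was at 5.74 and 6.03 in FGF-ESC, 7.32 and 6.84 in EpiSC, 5.90 and 5.98 in ESC, and 5.30 and 5.19 in ICM. EpiSC stood above the other groups without overlap, and the log2 fold change was -1.19 ± 0.18 in FGF-ESC against EpiSC (adjusted p = 0.00286) and 1.14 ± 0.18 in EpiSC against ESC (adjusted p = 0.00298). Without the first EpiSC array these were -0.95 and 0.90, under the fold minimum. Flrt2, a membrane protein of the FGF receptor-binding FLRT family, was at 7.95 and 6.99 in FGF-ESC and at most at 4.71 on the other 6 arrays, beside the fibroblast markers given above. Its relative Flrt1 was highest in ICM, at 6.02 and 5.65, with log2 fold changes of -1.26 ± 0.17 in FGF-ESC, -1.34 ± 0.17 in EpiSC and -1.20 ± 0.17 in ESC against ICM. Cdh2, the adhesion protein N-cadherin, was 2.16 ± 0.44 higher in EpiSC than in ESC (adjusted p = 0.0109), and 1.79 on its other probe set. The first value lay between 2.08 and 2.24 with any 1 array left out, but it did not pass without any 1 of the EpiSC or ESC arrays. Of all genes, 3.86% were higher in EpiSC than in ESC. In this comparison 2 of the 9 genes rose, but none did without the first EpiSC array and 1 without the second EpiSC or either ESC array.

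Heparan sulfate proteins and enzymes, which hold FGFs at the receptor, had 22 tested genes of 30 listed. In FGF-ESC against ICM 11 rose and 1 fell (50% and 4.55%, beside 9.57% and 5.22% of all genes), with a median log2 fold change of 0.98 beside -0.02 over all genes. In EpiSC against ICM 8 rose and 1 fell (36.4% and 4.55%, beside 8.48% and 6.8%), with a median of 0.57 beside 0.01. In ESC against ICM 5 rose and 1 fell (22.7% and 4.55%, beside 5.82% and 5.57%), with a median of 0.40 beside 0.02. The share that fell was near that of all genes in each of these comparisons; the single fall was not called without the second FGF-ESC array in FGF-ESC against ICM, nor without the second ESC or the first ICM array in ESC against ICM. Sulf1, a sulfatase that trims the sulfate groups FGFs need, was at 7.69 and 6.78 in FGF-ESC, 8.65 and 8.70 in EpiSC, 5.92 and 6.18 in ESC, and 3.88 and 4.20 in ICM. The groups did not overlap. The log2 fold change was -1.44 ± 0.27 in FGF-ESC against EpiSC (adjusted p = 0.00774) and 2.01 ± 0.27 in ESC against ICM (adjusted p = 0.000814). The first of these did not pass without either EpiSC array, without the second FGF-ESC array (-0.99) or with only these 2 groups fitted. The core proteins Sdc2 and Gpc3 were lowest in ICM, with log2 fold changes of 3.08 ± 0.22 and 2.08 ± 0.20 in FGF-ESC against ICM. In FGF-ESC against ESC 5 of the 22 rose (22.7%, beside 5.27% of all genes), among them Sdc1 (1.34 ± 0.18), Ext1 (1.36 ± 0.22), Gpc1 (1.49 ± 0.26) and Sdc3 (1.80 ± 0.32). That count was 1 without the first ESC array and 2 without the second, and the second probe set of Gpc1 read 0.24. Fibroblast markers moved with these rises: 20 of 23 rose in FGF-ESC against ESC (87%, beside 5.27% of all genes), with a median log2 fold change of 3.15. Sdc3 (7.35 and 6.23), Gpc1 (6.85 and 5.97), Ext1 (8.08 and 7.39) and Sdc1 (8.92 and 8.37) were also higher on the first FGF-ESC array, as those markers were. The part of the markers in these rises was not tested. In FGF-ESC against EpiSC 2 rose, Hspg2 (1.11 ± 0.24) and Sdc3 (1.13 ± 0.32), and 1, Sulf1, fell. That is 9.09% higher and 4.55% lower, beside 5.26% and 2.02% of all genes. Without the first FGF-ESC array or either EpiSC array no gene rose, and Sdc3 also did not pass when any 1 ESC or ICM array was left out.

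Of the receptor adaptors and the ERK cascade, 22 of 29 genes were tested. In FGF-ESC against EpiSC 2 rose and 1 fell (13.6%, beside 7.28% of all genes), and in EpiSC against ESC 1 rose and 2 fell (13.6%, beside 7.36%). Against ICM, 1 rose in FGF-ESC (4.55%, beside 14.8%), 2 rose and 3 fell in EpiSC (22.7%, beside 15.3%), and 2 rose and 2 fell in ESC (18.2%, beside 11.4%). The count of falls in EpiSC against ESC was 1 without the first EpiSC array or either ESC array. Gab1, a docking protein for several receptors, was at 8.49 and 8.64 in FGF-ESC, 5.81 and 6.01 in EpiSC, 9.14 and 9.12 in ESC, and 7.87 and 7.91 in ICM. EpiSC was lowest by a wide margin: 2.66 ± 0.12 in FGF-ESC against EpiSC (adjusted p = 2.05e-05) and -3.23 ± 0.12 in EpiSC against ESC (adjusted p = 5.72e-06). Grb10, an imprinted adaptor that dampens growth factor receptors, ran the other way, at 7.12 and 6.83 in FGF-ESC, 8.09 and 8.34 in EpiSC, 6.17 and 6.24 in ESC, and 4.77 and 4.56 in ICM. Its log2 fold change was -1.24 ± 0.15 in FGF-ESC against EpiSC (adjusted p = 0.00113) and 2.01 ± 0.15 in EpiSC against ESC. In FGF-ESC against ESC none of the 22 passed in limma, and 5 had an unadjusted p below 0.05; without the second FGF-ESC array 2 rose.

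Genes that FGF and ERK signalling raises, its feedback inhibitors and immediate targets, had 18 tested genes of 20 listed. Against ESC, 10 rose and none fell in FGF-ESC (55.6% higher, beside 5.27% of all genes). The median log2 fold change was 1.09, beside -0.06 over all genes. In EpiSC against ESC 6 rose and none fell (33.3% higher, beside 3.86%), with a median of 0.85 beside -0.005. The first count was 5 without the first FGF-ESC array or without either ESC array, and the second was 4 without the second ESC array. Dusp6, the ERK phosphatase, was at 9.18 and 9.06 in FGF-ESC, 9.75 and 9.65 in EpiSC, 7.50 and 7.57 in ESC, and 8.11 and 8.01 in ICM. Every array of both FGF2-grown groups was above ESC and ICM, with a log2 fold change of 1.59 ± 0.12 in FGF-ESC against ESC (adjusted p = 0.000174) and 2.17 ± 0.12 in EpiSC against ESC (adjusted p = 1.97e-05). Its other probe set gave 2.52 and 3.86 for these comparisons. In FGF-ESC against EpiSC the probe sets differed: the first read -0.58 and did not pass, and the other read -1.33 (adjusted p = 0.00971 with each probe set tested on its own). The immediate early gene Egr1 rose by 3.27 ± 0.23 in FGF-ESC and by 2.32 ± 0.23 in EpiSC against ESC. ESC alone were kept in 2i, and medium, feeders and cell type cannot be told apart in these comparisons. Against ICM, 8 rose and none fell in FGF-ESC (44.4% higher, beside 9.57% of all genes), with a median of 0.90 beside -0.02. In EpiSC against ICM 8 rose and 1 fell (44.4% and 5.56%, beside 8.48% and 6.8%), with a median of 0.91 beside 0.01. In ESC against ICM 2 rose and 2 fell (11.1% each, beside 5.82% and 5.57%), with a median of 0.15 beside 0.02. Kit, culture and cell type cannot be told apart against ICM. In FGF-ESC against EpiSC, which shared medium and feeders, 3 of the 18 rose (Ier3 at 2.51 ± 0.26, Phlda1 at 1.68 ± 0.29 and Fos at 1.38 ± 0.23). Etv1 fell at -1.50 ± 0.30. These were 16.7% higher and 5.56% lower, beside 5.26% and 2.02% of all genes. The median was 0.02, beside -0.04 over all genes, with Dusp6 counted by its first probe set. The other probe set of Etv1 read -0.74 there. Without the second FGF-ESC array 6 rose in this comparison, without either EpiSC array Etv1 did not pass, and without the first EpiSC array Phlda1 did not; fibroblast markers were higher in FGF-ESC, as given above, and their part in these counts was not tested.

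**Figure D4:**
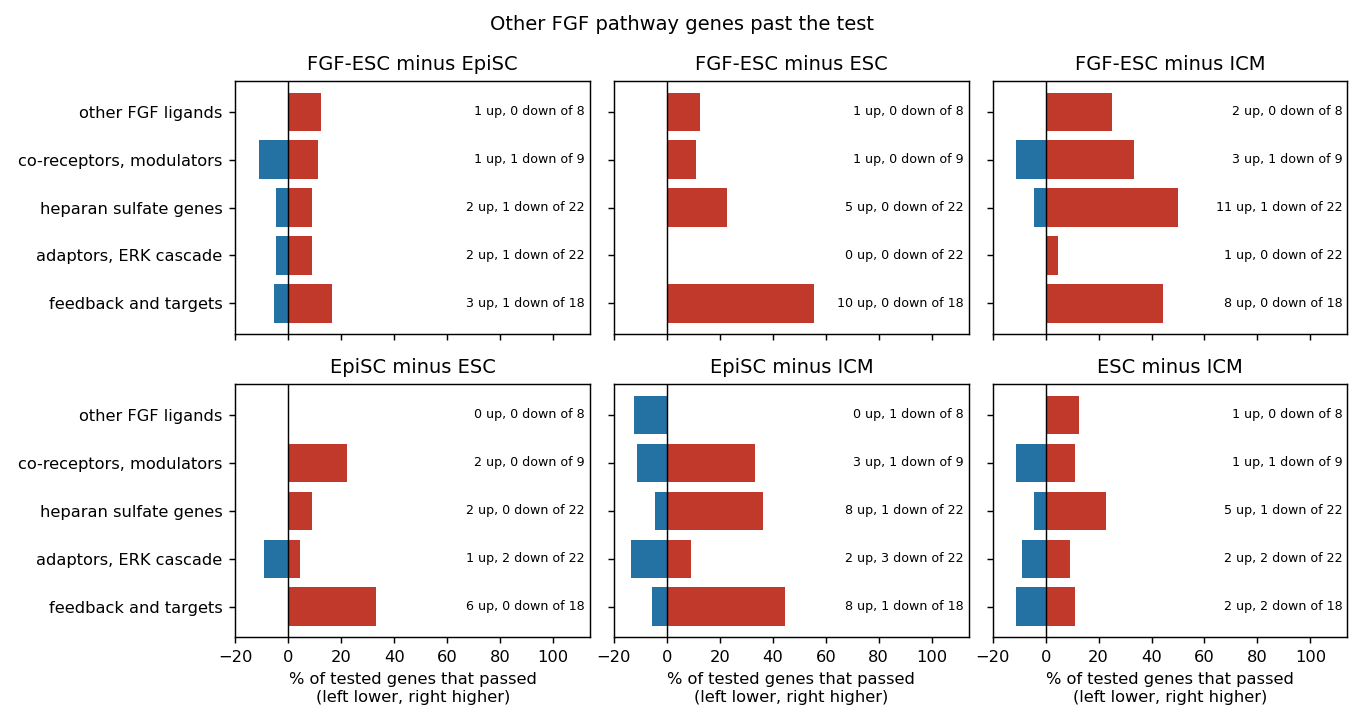
Share of the tested genes of 5 FGF pathway lists that passed the test in each of the 6 comparisons, in percent, with higher genes to the right of 0 and lower genes to the left. Feedback and target genes have 10 of 18 higher in FGF-ESC against ESC (5.27% of all genes) and 6 of 18 higher in EpiSC against ESC (3.86%). Adaptors and the ERK cascade have none in FGF-ESC against ESC (6.21% of all genes).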

How the data were processed

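RNA of 8 samples was amplified and biotin-labelled with whole-transcriptome kits and hybridised to Affymetrix Mouse Gene 2.1 arrays, per the labels' protocols. The authors deposited log2 values for 41345 probe sets, and the submitters' processing notes name Affymetrix Expression Console 1.3.1. How probe sets were summarised and background was removed is not given in the sources used here; no detection calls were used, and the floor stands in for them. Array medians ran from 4.16 to 4.28, and no further normalisation was applied. GEO's platform annotation gave 23521 probe sets a single gene symbol, 1814 several and 16010 none, and 23328 of the first were matched to a RefSeq gene. A gene was represented by its probe set with the highest mean. Of 22180 genes, 13597 exceeded the median of all values (on 2 or more arrays) and were tested with limma 3.58.1 (R 4.3.3; lmFit, contrasts.fit and eBayes, all 8 arrays, 4 residual degrees of freedom) in 6 comparisons that share arrays. The number of arrays limits the precision. Simulated data for FGF-ESC against ESC on 13597 genes, with 50 genes changed at each size, gave back 44 at 1.5, 47 at 2, 49 at 3 and 50 at a log2 fold change of 4, with 4 false calls. The simulated noise of a gene was equal in all groups, whereas the residual SD of the arrays was 0.28 in FGF-ESC and 0.12 in ESC. The recovery and false calls in the real comparison may therefore differ from these figures. The members and the gene lists were chosen with earlier results of these data known. Every member is named; a fold change is given where a member passed or missed only the fold minimum, and up to 4 passing genes with the smallest adjusted p stand for each list in a comparison. The alternatives changed the floor, the filter, the choice of probe set, the normalisation, the variance model and the arrays used.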

Additional observations from a re-analysis of the deposited data

How the results depend on the processing

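The number of members that passed was within 1.5 times the reported count under most of the 20 alternative settings. No member changed sign in a comparison where it passed or missed only the fold minimum. Among the others some did, such as Fgf4 in FGF-ESC against ESC (-0.20, and 0.09 without the first FGF-ESC array). With a filter of 4 arrays above the floor, 1 member passed in FGF-ESC against EpiSC, 2 in EpiSC against ESC and 2 in EpiSC against ICM, since Fgf5, Fgf8 and Fgf15 were above the floor on the EpiSC arrays alone and were then not tested. With no fold minimum, 1 passed in FGF-ESC against ESC, namely Fgfr1. With 1 array left out the counts ran from 4 to 5 in FGF-ESC against EpiSC, 0 to 1 in FGF-ESC against ESC, 2 to 3 in FGF-ESC against ICM, 5 to 6 in EpiSC against ESC, 4 to 5 in EpiSC against ICM and stayed at 3 in ESC against ICM. Of the recomputed fold changes of pairs that had passed, 367 still passed and 5 did not: Fgf4 in FGF-ESC against ICM and Fgf15, both given above. Of those of pairs that had missed only the fold minimum, 73 did not pass and 6 did. The setting with no fold minimum reused the reported fit. Every pair that had passed or missed only the fold minimum therefore passes there by definition, and these counts include that setting. Over all genes, FGF-ESC against ESC had 844 calls, 526 with only these groups fitted, 374 and 400 without the first or second ESC array, and 1287 without the second FGF-ESC array. Dropping the fold minimum gave 2692, 2087, 4984, 2584, 5219 and 4488 calls in the 6 comparisons, against 990, 844, 2011, 1001, 2078 and 1548. The groups share replicate numbers, but nothing in the labels ties equal numbers together, and residuals of same-numbered arrays correlated between -0.09 and 0.04. With the replicate number as a block the members passing were 4, 0, 3, 5, 4 and 3, as without it, and calls over all genes 974, 828, 2011, 998, 2071 and 1545. Signal near the floor limits Fgf2, Fgfr3, Fgfr4 and the lower groups of Fgf5, Fgf8, Fgf15, Fgfr2 and Fgfbp1.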

Other observations

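The gap between the 2 EpiSC arrays in Fgfbp1, 2.01 log2 units, was the widest of the 13597 genes tested in that group, where 20 genes were 1 unit or more apart. Its arrays were 0.02 apart in FGF-ESC, 0.14 in ESC and 0.55 in ICM. Fgfr1 differed by 0.72 between the FGF-ESC arrays, a gap that 907 tested genes matched or passed in that group. A mesendoderm list that includes Fgf17 (9 of 10 genes with a probe set) averaged 3.95 and 4.06 in FGF-ESC, 4.98 and 5.07 in EpiSC, 4.13 and 4.19 in ESC, and 4.13 and 4.41 in ICM. EpiSC had the highest mean on this list, and it was also the highest group for Fgf8. Not all genes of the list followed its mean. Fgf17 itself averaged 5.77 in FGF-ESC, 5.21 in EpiSC, 5.79 in ESC and 4.75 in ICM. Gsc was highest in ICM, at 5.35 against 4.89 in EpiSC, and Mesp1 and Evx1 were under the floor in EpiSC.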
